A study of Mus musculus with 483 samples.

Results

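The genes of the G2 and M phases of the cell cycle form a list of 40 genes, chosen by name from the 46078 genes of a table of read counts from single mouse cells. All 40 were present in the table, and all 40 were among the 15204 genes with a read in at least 5% of cells, which are called measured here. The cells were sorted for CD31, an endothelial surface protein, and for Kit, the stem cell factor receptor, and against CD45, a protein of blood cells. They were taken from the aorta-gonad-mesonephros region of the embryo, where hematopoietic stem cells first form from endothelium. Of the 483 cells, 49.5% were labelled Ctrl and 50.5% aDll4-treated. The labels do not explain aDll4, although the series is titled for the Notch ligand Dll4, and they give no genotype, strain, age, dose or embryo for any cell. The submitters also gave each cell a cluster number, and the G2 and M phase genes were compared between treatments within clusters 1, 2 and 3, which hold 395 cells (97 Ctrl and 86 treated, 73 and 72, and 31 and 36).

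In G2 a cell that has copied its DNA prepares to divide, and in M phase it condenses its chromosomes, attaches them to a spindle of microtubules, separates them and splits. Cyclins A and B bound to the kinase Cdk1 start this sequence, and further kinases, kinetochore proteins, motors and cytokinesis factors carry it out before a ubiquitin ligase, the anaphase-promoting complex, ends it. In mammals the genes of these proteins are held off in resting cells by complexes of the MuvB family, which contact a short promoter element named CHR, and many also carry CCAAT boxes, the site of the factor NF-Y. Their RNA therefore accumulates late in the cycle and marks dividing cells in any tissue, and in the embryonic aorta it marks endothelial and emerging blood cells that are about to divide.

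The promoters of 33 of the 40 genes were found in a RefSeq table of build GRCm38.p6, as 35 promoters that run from 250 bases before to 50 bases after the start of transcription. The CHR was searched as the hexamers TTTGAA and TTCGAA, and the CCAAT box as CCAAT, each on both strands. A CHR hexamer was present in 82.9% of the 35 promoters, against 19.2% of all 32851 promoters of the table. It began within 50 bases of the start in 74.3% of them, against 5.31% of all. CCAAT was present in 77.1%, against 37.4% of all, and both motifs in 71.4%, against 7.52%. Of 26 promoters of 23 S phase genes, 15.4% held a CHR hexamer. The 3 promoters below are shown because they hold both motifs and, of such genes, their RNA followed the other 39 genes most closely across cells. Capitals mark CHR hexamers (TTTGAA, or TTCAAA on the other strand) and CCAAT boxes (CCAAT, or ATTGG on the other strand), which overlap at 1 place in Ube2c.
Ube2c promoter, chr2:164769679-164769978, plus strand: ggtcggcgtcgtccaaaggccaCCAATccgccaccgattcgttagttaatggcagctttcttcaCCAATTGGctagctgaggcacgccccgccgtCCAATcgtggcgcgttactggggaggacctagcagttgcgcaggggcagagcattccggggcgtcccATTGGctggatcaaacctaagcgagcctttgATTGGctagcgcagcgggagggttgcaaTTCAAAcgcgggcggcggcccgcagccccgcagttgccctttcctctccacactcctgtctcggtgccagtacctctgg
Plk1 promoter, chr7:122159185-122159484, plus strand: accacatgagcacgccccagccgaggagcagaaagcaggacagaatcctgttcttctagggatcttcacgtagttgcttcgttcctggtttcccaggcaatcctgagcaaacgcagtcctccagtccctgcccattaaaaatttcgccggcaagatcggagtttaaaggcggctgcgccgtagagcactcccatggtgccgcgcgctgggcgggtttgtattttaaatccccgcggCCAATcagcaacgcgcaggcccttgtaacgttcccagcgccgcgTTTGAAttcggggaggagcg
Hmmr promoter, chr11:40733388-40733687, minus strand: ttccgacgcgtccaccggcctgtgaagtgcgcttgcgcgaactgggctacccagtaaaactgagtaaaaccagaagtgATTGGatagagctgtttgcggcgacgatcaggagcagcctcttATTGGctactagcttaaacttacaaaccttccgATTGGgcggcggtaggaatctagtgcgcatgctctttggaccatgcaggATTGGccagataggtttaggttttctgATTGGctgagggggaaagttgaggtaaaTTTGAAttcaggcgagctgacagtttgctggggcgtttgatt
Each of the 3 promoters held 1 CHR hexamer, beginning at position -29 from the start of transcription in Ube2c, 31 in Plk1 and 9 in Hmmr. Ube2c held 6 CCAAT boxes, Hmmr held 5 and Plk1 held 1. These are matches of letters only.

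Reads assigned to genes ranged from 123097 to 2870618 per cell, with medians of 900286 in Ctrl and 869802 in treated cells. Library numbers fell into 2 blocks, with 354 cells in block 1, 49.7% of them Ctrl, and 63 Ctrl and 66 treated cells in block 2, and were divided into 6 runs of 96 consecutive numbers that each held both treatments. Cells with at least 10 reads of Xist, the RNA of the inactive X chromosome, or of 4 Y-linked genes show that the treatments differ in the sex of the embryos. In block 1, 85 Ctrl cells were Xist-positive and 77 Y-positive, whereas 89.3% of treated cells were Y-positive and 0 were Xist-positive. In block 2 the numbers were 25 and 29 in Ctrl, against 61 and 0 in treated cells. Cells are not replicates and no embryo is labelled, so each treatment was 1 sample, no test was run, and treatment cannot be told apart from embryo. Intervals below are 95% and cover counting error only, and amplified reads without molecular identifiers are not independent molecules. All 8 endothelial markers were read in clusters 1 to 3, and Cdh5, the endothelial cadherin, had a read in 100% of the cells of clusters 1 and 2. In cluster 3 the share was 96.8% in Ctrl and 88.9% in treated cells. Ptprc, which encodes CD45, the protein sorted against, had a read in 3.23% of cells or fewer. Blood transcripts were not absent. In clusters 1 and 2, 8 hematopoietic markers together stood at 126.5 CPM (defined below) or less in each treatment, summed over cells. Single cells of clusters 1 and 2 reached 607 and 799 CPM of these markers, with medians over cells of 79.3 CPM or less. In cluster 3 they reached 1833 CPM in a Ctrl cell and 1967 CPM in a treated cell, with medians over cells of 9.96 CPM or less. There, 7 megakaryocyte and erythroid markers reached 670 CPM (Ctrl) and 608 CPM (treated) in single cells. In clusters 1 and 2 they reached 202.5 and 395 CPM.

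Detection differed widely among the 40 genes. In all 483 cells, Ttk, the checkpoint kinase that senses unattached kinetochores, had a read in the fewest cells, 56.7%, and Hmgb2, a DNA-bending chromatin protein, in the most, 98.8%. Per length of annotated exon, the highest levels in clusters 1 to 3 were those of cyclin Ccnb2 at 137.2 CPM per kb, of Ube2c, the ubiquitin-conjugating enzyme of the anaphase-promoting complex, at 117.9, and of Cdk1 at 114.2. CPM is reads per 1000000 gene-assigned reads, summed over cells. The lowest were those of Nuf2, part of the kinetochore's microtubule-binding Ndc80 complex, at 7.64 CPM per kb, and of the kinetochore protein Cenpf at 7.79. The reads do not mark the strand, and 16 of the 40 genes overlap another annotated gene, among them Kif20a (with Cdc23), Nusap1 (with Oip5) and Ckap2l (with Gm14024), so that part of their reads may belong to that gene.

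The score of a cell is the mean of log2(CPM + 1) over the 40 genes. Across the 395 cells it ran from 0.34 to 8.67 and fell into a low and a high group. Of these cells, 85 lay between 1 and 2, only 32 between 3 and 4, and 60 between 7 and 8. A threshold of 4.46, set by Otsu's method on all 395 scores together, put 50.4% of them in the high and the rest in the low group, with 31 cells within 0.5 of it. High cells had a median score of 6.73 and reads of a median of 38 of the 40 genes, and low cells had 1.95 and 21. Median reads were 954667 in high and 759210 in low cells, median genes detected 7856 and 7089.5, and the median mitochondrial share was 8.25% in both.

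Low cells were not empty of these RNAs. Hmgb2 had a read in 96.9% of low cells, Cdk1 in 94.9%, the condensin subunit Smc4 in 93.9% and Top2a, the topoisomerase that untangles copied chromosomes, in 87.2%. At the other end, Nuf2 had a read in 24.5% of low cells, Hmmr, a spindle-associated protein, in 27.6% and Ttk in 28.1%. In high cells every gene had a read in at least 78.9% of cells. The summed level of Plk1, the kinase of mitotic entry and spindle poles, was 282 CPM in high and 14.3 in low cells, whereas Hmgb2 was at 109.4 and 41.9. The cells were split by these same genes, so the contrast of high and low cells is a description.

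**Figure D1:**
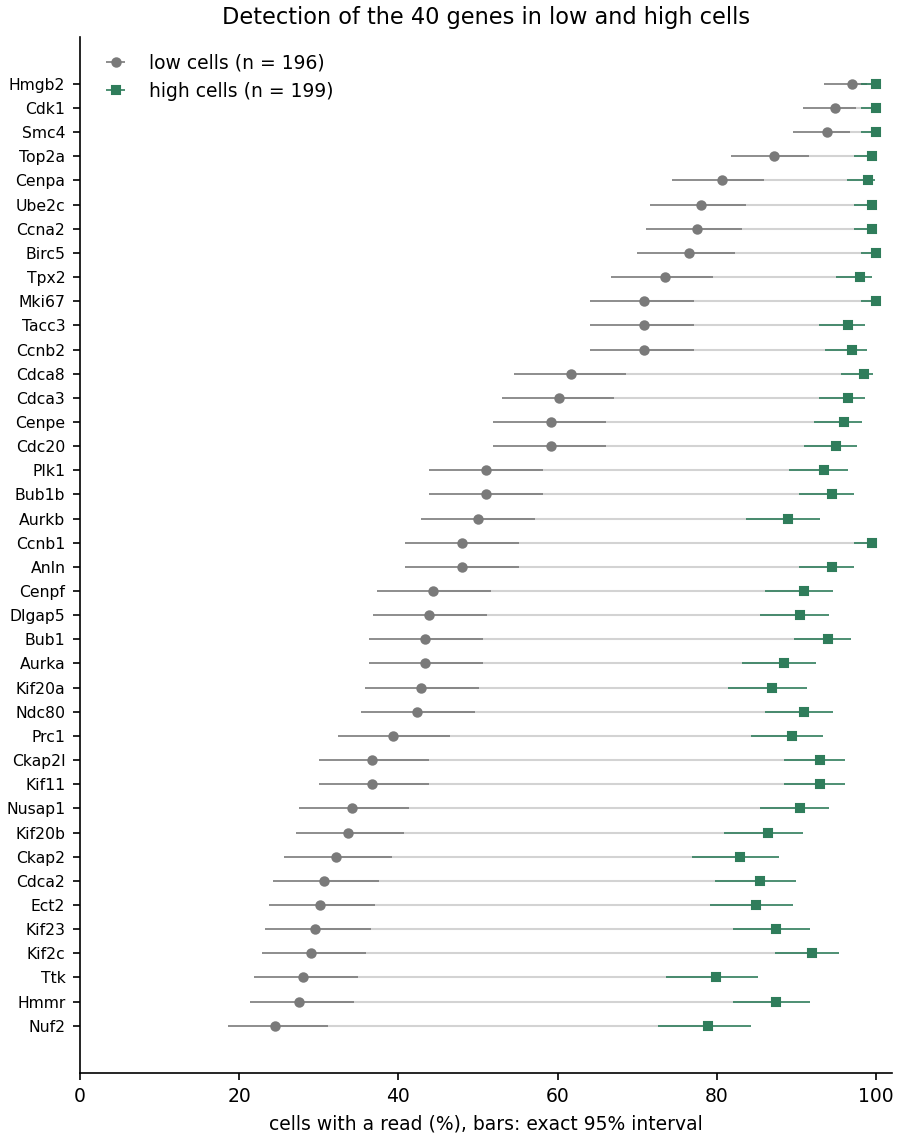
Percent of the low cells (circles) and high cells (squares) of clusters 1 to 3 with at least 1 read of each of the 40 genes; bars are exact 95% intervals. Hmgb2, Cdk1 and Smc4 were read in 96.9%, 94.9% and 93.9% of low cells, and Nuf2 in 24.5%.

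Groups of the 40 genes did not climb together along the score. In cells scoring between 3 and 4, the cyclins with Cdk1 already averaged 5.35 on the log2(CPM + 1) scale and chromosome structure genes 4.96, while cytokinesis genes stood at 1.94 and spindle genes at 2.58. In cells between 8 and 9 the cytokinesis genes had reached 7.84 and the cyclins with Cdk1 8.82. The groups differ in abundance and genes of low level stay near 0 on this scale, so the contrast gives no order of events. A separate list of 30 S phase genes, which encode DNA replication proteins and are not in the score, peaked at 5.20 in cells between 4 and 5 and was lower, at 4.05, in cells between 8 and 9. Among high cells the S phase level correlated with Cenpa, the centromeric histone, at r = -0.42, with Ube2c at r = -0.40, and with Cdc20, the activator of the anaphase-promoting complex, at r = -0.40. It correlated with Aurkb, the kinase of the chromosomal passenger complex, at r = 0.31. These correlations run over the high cells, which share libraries and depth, and describe them only. Bins and correlations pool clusters 1 to 3. The S phase level of high cells was 4.40 (Ctrl) and 4.51 (treated) in cluster 1, against 5.30 and 4.89 in cluster 2. Of the 24 cells between 8 and 9, 13 Ctrl and 5 treated cells were of cluster 1. The part of the cluster mix in the decline and the correlations was not tested.

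**Figure D2:**
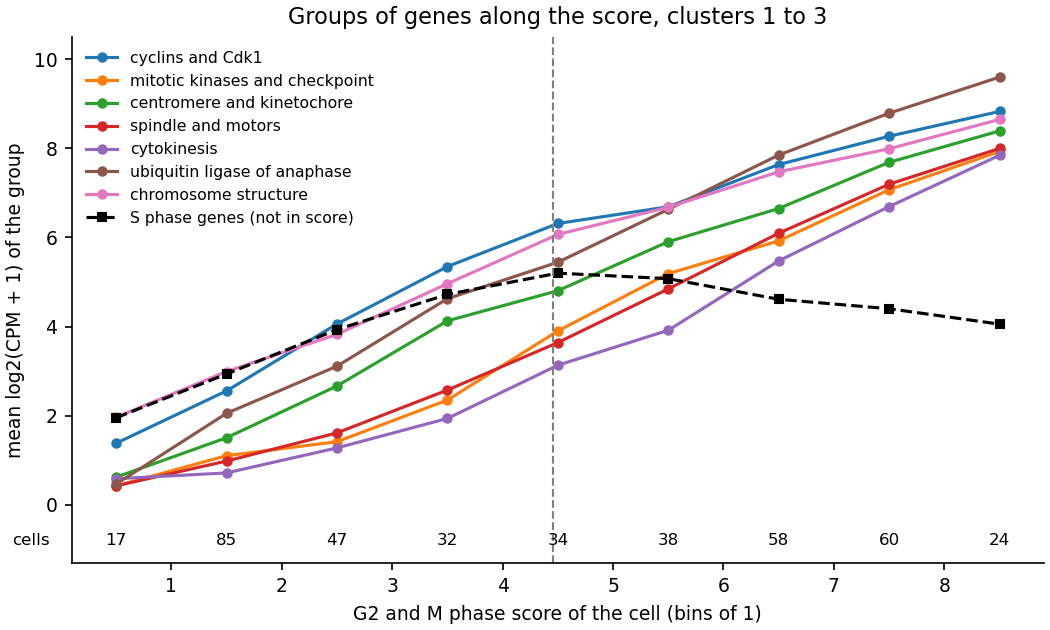
Mean log2(CPM + 1) of each group of genes (lines) in cells of clusters 1 to 3 binned by their score, with the number of cells per bin along the bottom; the dashed vertical line is the threshold of 4.46. The 7 groups of the score climb with it by construction, and the S phase genes, which are not in it, peak at 5.20 and decline to 4.05.

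In cluster 1 the score was lower in treated than in Ctrl cells, and with both blocks together the larger part of the difference lay in the level reached by high cells. Ctrl scores ran from 0.77 to 8.67 with a median of 6.41, and treated scores from 0.74 to 8.56 with a median of 5.26. The 2 ranges overlapped almost wholly. The mean was 5.10 ± 2.78 (SD over 97 cells) in Ctrl and 4.71 ± 2.53 (86 cells) in treated cells, a difference of -0.38. High cells made up 60.8% of Ctrl (59 of 97, exact interval 50.4 to 70.6%) and 58.1% of treated cells (50 of 86, 47.01 to 68.7%). That is a shift of -2.69 percentage points, with a Newcombe interval from -16.6 to 11.3. Within high cells the mean score was 7.19 ± 0.98 in Ctrl and 6.68 ± 1.11 in treated cells. The difference of -0.38 divides exactly into -0.13 from the share of high cells, -0.30 from the level of high cells and 0.05 from the level of low cells. Cells scoring at least 8 were 13 of 97 Ctrl cells (13.4%, exact interval 7.33 to 21.8%) and 5 of 86 treated cells (5.81%, 1.91 to 13.05%).

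**Figure D3:**
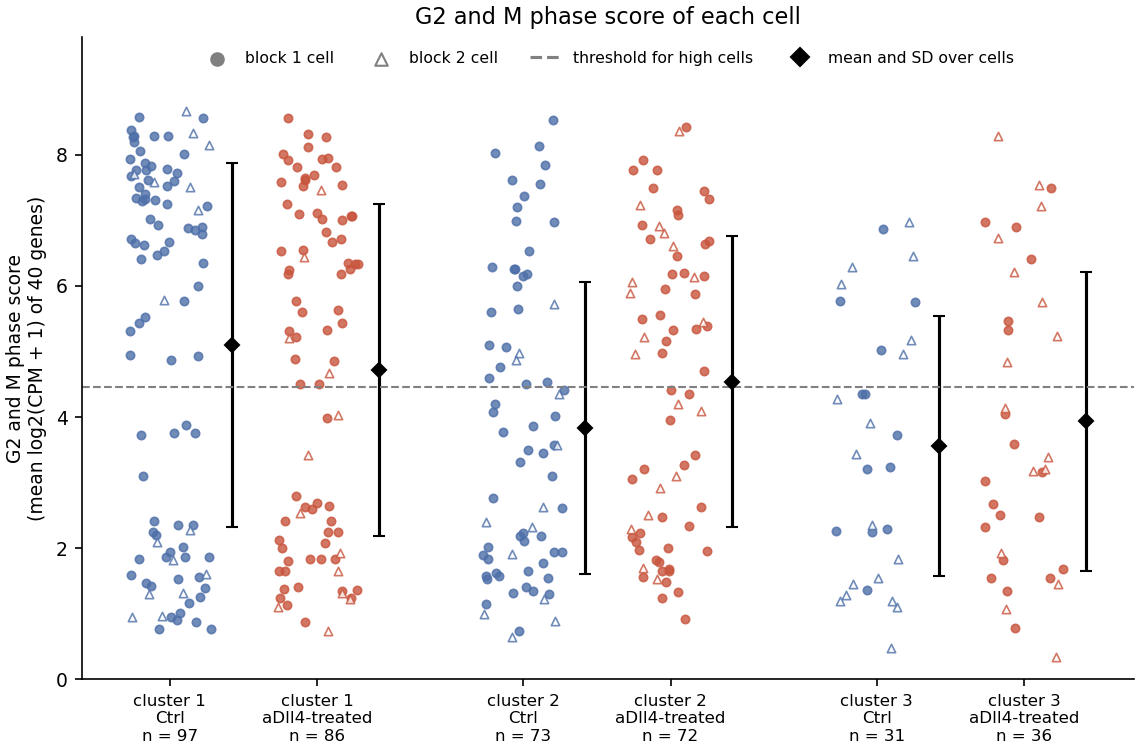
Score of each cell (mean log2(CPM + 1) of the 40 genes) by cluster and treatment, with block 1 cells as filled circles and block 2 cells as open triangles; diamonds and bars are the mean and SD over cells, and the dashed line is the threshold of 4.46. Treated means were 4.71 against 5.10 in cluster 1, 4.54 against 3.83 in cluster 2 and 3.93 against 3.56 in cluster 3, all within widely overlapping ranges.

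The blocks gave cluster 1 differences of unequal size. In block 1 (81 Ctrl and 73 treated cells) the score difference was -0.22, with a share shift of 0.051 points and a level difference of -0.38 in high cells. In block 2 (16 and 13 cells) it was -1.37, with -19.2 points (-47.7 to 15.5) and -1.67. The larger part was the level in block 1 (-0.24, against 0.003 from the share) but the share in block 2 (-0.96, against -0.67 from the level). Of the runs below 0, the share gave the larger drop in runs 3, 4 and 5 and the level in runs 2 and 6. The score was lower in treated cells in 5 of the 6 runs, with differences from -1.57 to 0.51, and so was the level of high cells. Among Y-positive cells of block 1 alone (32 Ctrl and 70 treated) the score difference was -0.22 and the level difference -0.66. In the 10 Ctrl and 12 treated cells of block 2 that were Xist-positive, these differences were -1.58 and -1.70. High cells of cluster 1 had medians of 1023490 reads in Ctrl and 956586 in treated cells. After every cell was thinned to 120000 reads, their mean scores were 7.12 and 6.64.

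In cluster 2 the score was higher in treated cells, and with both blocks together the difference lay mostly in the share of high cells. Ctrl scores ran from 0.64 to 8.52 with a median of 3.57, and treated scores from 0.92 to 8.43 with a median of 4.97. The ranges overlapped, but the middle of the treated cells lay above the threshold and that of the Ctrl cells below it. The mean was 3.83 ± 2.23 (73 cells) in Ctrl and 4.54 ± 2.22 (72 cells) in treated cells, a difference of 0.71. High cells made up 38.4% of Ctrl (28 of 73, 27.2 to 50.5%) and 52.8% of treated cells (38 of 72, 40.7 to 64.7%), a shift of 14.4 points with an interval from -1.73 to 29.6. High cells had a mean score of 6.26 ± 1.21 in Ctrl and 6.42 ± 1.00 in treated cells. The share contributed 0.57 of the 0.71, the level of high cells 0.07 and that of low cells 0.07.

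In block 1 (60 Ctrl and 53 treated cells) the cluster 2 difference was 0.38, with a share shift of 9.28 points (-8.87 to 26.7) and a level difference of 0.06. In block 2 (13 and 19 cells) it was 2.03, with 34.8 points (0.09 to 58.9) and 1.14, the last resting on 3 high Ctrl cells. The score was higher in treated cells in 5 of 6 runs, with differences from -0.70 to 2.54. Among Y-positive cells of block 1 (33 and 45) the difference was 0.20, the shift 2.63 points and the level difference 0.30. There the level of high cells was the larger part, at 0.15, against 0.10 from the share. In the 4 Ctrl and 18 treated cells of block 2 that were Xist-positive, the difference was 1.77 and the shift 36.1 points. In those the share contributed 1.30 and the level of high cells 0.26. After thinning, high cells were 35.6% of Ctrl and 54.2% of treated cells. Their mean scores were then 6.29 in Ctrl and 6.26 in treated cells, so the small level difference changed sign.

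In cluster 3 the score gave no steady direction. Ctrl scores ran from 0.47 to 6.97 with a median of 3.44, and treated scores from 0.34 to 8.29 with a median of 3.30. The mean was 3.56 ± 1.98 (31 cells) in Ctrl and 3.93 ± 2.29 (36 cells) in treated cells, a difference of 0.37. The medians and the means thus differed in sign. High cells were 32.3% of Ctrl (10 of 31) and 38.9% of treated cells (14 of 36), a shift of 6.63 points (-15.9 to 27.9), and the level within them was 5.93 ± 0.73 and 6.46 ± 1.03. Of the 0.37, the share contributed 0.25, the level of high cells 0.19 and that of low cells -0.07. The level difference in high cells was 0.57 in block 1 (13 Ctrl and 20 treated cells in all) and 0.50 in block 2 (18 and 16). The score difference was -0.33 in block 1 and 1.08 in block 2. It was above 0 in 3 of 6 runs, and leaving out run 6 alone, where it was 2.96, turned the difference to -0.65. A score of at least 7 was reached by 0 of 31 Ctrl cells (exact interval up to 11.2%) and 4 of 36 treated cells. Cluster 3 also held cells poor in endothelial markers, whose summed level went down to 80.5 CPM (Ctrl) and 65.1 CPM (treated). Mesenchymal markers reached 2743 CPM (Ctrl) and 12260 CPM (treated) in cells of cluster 3, against 1021 and 1157 CPM in clusters 1 and 2. The part of such cells in the result was not tested.

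**Figure D4:**
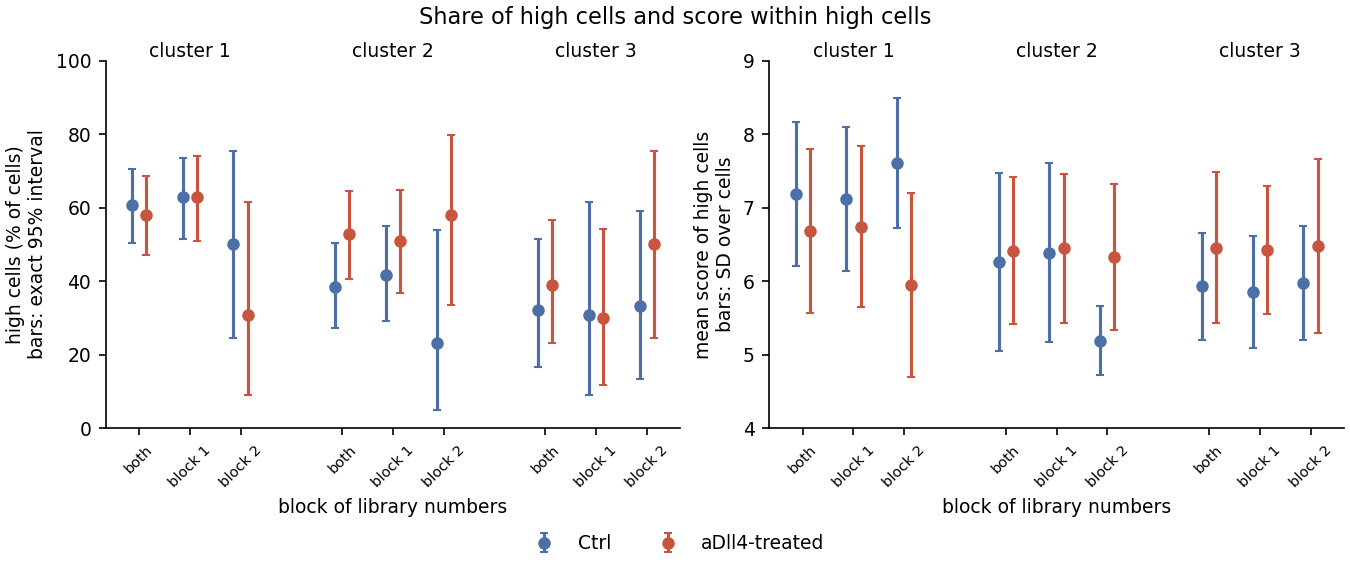
Left, percent of cells that were high, with exact 95% intervals; right, mean score of high cells, with the SD over cells, for Ctrl and treated cells in both blocks together and in each block. In cluster 1 the treated level was lower in each block while the block 1 shares were equal within 0.051 points; in cluster 2 the treated share was higher in each block, by 9.28 and 34.8 points.

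All 40 genes had a lower summed level in treated than in Ctrl cells of cluster 1. Among all measured genes 51.9% did, although the 40 genes move together within a cell and are not independent of each other. The log2 ratios of summed CPM + 1, treated over Ctrl, ran from -0.98 to -0.09 with a median of -0.47, against a median of -0.01 over all measured genes. A ratio of -0.5 or less was reached by 19 of 40, against 13.2% of measured genes. It was reached by 10 of 40 in block 1, against 12.8%, and by 36 of 40 in block 2, against 30.8%. In both blocks alike 37 of 40 were lower, against 27.5% of measured genes.

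Cytokinesis and spindle genes had the lowest ratios in cluster 1. Kif20a (chr18:34624613-34633277, plus strand), the kinesin that carries passenger proteins to the midzone, was at 122.7 CPM in Ctrl and 61.9 in treated cells, a log2 ratio of -0.98. Its median cell held 28.4 CPM in Ctrl and 4.26 in treated cells and its highest cell 620 and 493, while cells with a read were 67.01% and 68.6%. So the gene was read about as often and at lower levels. Nusap1 (chr2:119618298-119651244, plus strand), which bundles spindle microtubules, was at 141.05 and 76.8 CPM, a log2 ratio of -0.87, with 71.1% and 61.6% of cells holding a read. Its ratio was -0.49 in block 1 and -4.19 in block 2. Hmmr (chr11:40701395-40733422, minus strand) was at 103.03 and 57.4 CPM, a log2 ratio of -0.83, with medians of 65.6 and 11.2 CPM over cells. By group, 6 of 9 spindle genes and 4 of 6 cytokinesis genes passed a log2 ratio of -0.5, as did 13.2% of measured genes. So did 3 of 6 kinases, 3 of 7 centromere genes, 2 of 5 cyclins with Cdk1 and 1 of 5 chromosome structure genes. Of the anaphase ligase genes 0 of 2 did. In block 1 alone the counts were 4 of 9 spindle genes, 2 of 6 cytokinesis genes and 2 of 5 cyclins with Cdk1, against 12.8%. As means of log2(CPM + 1), anaphase ligase genes (-0.48) fell as far as spindle genes (-0.48) and cytokinesis genes less (-0.44).

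The kinases and the main cyclin lay between. Plk1 (chr7:122159439-122169873, plus strand) was at 246 CPM in Ctrl and 158.3 in treated cells of cluster 1, a log2 ratio of -0.63. Aurka, the kinase of centrosomes and spindle poles, was at 164.8 and 119.4 CPM (-0.46), and Ccnb1, the cyclin that carries Cdk1 into mitosis, at 110 and 79.02 CPM (-0.47). Mki67, the coat protein of mitotic chromosomes and a common proliferation marker, was at 336 and 264 CPM (-0.34), and Top2a at 522 and 416 CPM (-0.33). The ratios nearest to 0 were those of Cdk1 at 667 and 608 CPM (-0.13), Hmgb2 at 72.9 and 66.8 CPM (-0.12) and Nuf2 at 55.6 and 52.1 CPM (-0.09). Cdk1 and Hmgb2 changed sign as means of log2(CPM + 1), to 0.08 and 0.16, so their direction depends on the scale. Nuf2 was read in 53.6% of Ctrl cells and 53.5% of treated ones.

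In cluster 2, 37 of the 40 genes were higher in treated cells, against 51.6% of measured genes, and 11 reached a log2 ratio of 0.5, against 12.5%. In block 1 alone 5 of 40 reached it, against 12.5%, and in block 2 alone 30 of 40, against 29.4%. By means of log2(CPM + 1) the count was 28, and leaving out 1 run at a time it ran from 6 without run 1 to 23 without run 2. The median ratio was 0.36, against 0.01 over all measured genes, and 22 of 40 were higher in both blocks, against 27.4%. The highest ratio was that of Cenpe (chr3:135212537-135273611, plus strand), the kinetochore motor that aligns chromosomes, at 80.2 CPM in Ctrl and 159.1 in treated cells (0.98). Its median cell held 3.74 and 64.8 CPM. Ccnb1 (chr13:100778650-100786570, minus strand) was at 49.9 and 97.4 CPM (0.95) and was read in 63.01% of Ctrl cells and 77.8% of treated ones. Its ratio was 0.75 in block 1 and 2.04 in block 2. Ttk was at 31.9 and 61.5 CPM (0.93), although its median cell held only 0.66 and 1.56 CPM.

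Other mitotic genes of cluster 2 were higher by less. Plk1 was at 104.9 CPM in Ctrl and 156.9 in treated cells (0.58), but its ratio was -0.01 in block 1 and 3.60 in block 2. Aurka was at 76.9 and 113.6 CPM (0.56), Top2a at 271 and 378 CPM (0.48), Cdk1 at 420 and 539 CPM (0.36) and Hmgb2 at 79.7 and 100.1 CPM (0.33). For Aurka the median cell held 0.84 CPM in Ctrl and 17.1 in treated cells. The 3 genes below 0 were Smc4 at 269 and 225.7 CPM (-0.25), Kif20b, a kinesin of late cytokinesis, at 41.2 and 36.3 CPM (-0.18), and Mki67 at 220 and 196.3 CPM (-0.17). Their means of log2(CPM + 1) were higher in treated cells, by 0.11, 0.02 and 0.40.

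**Figure D5:**
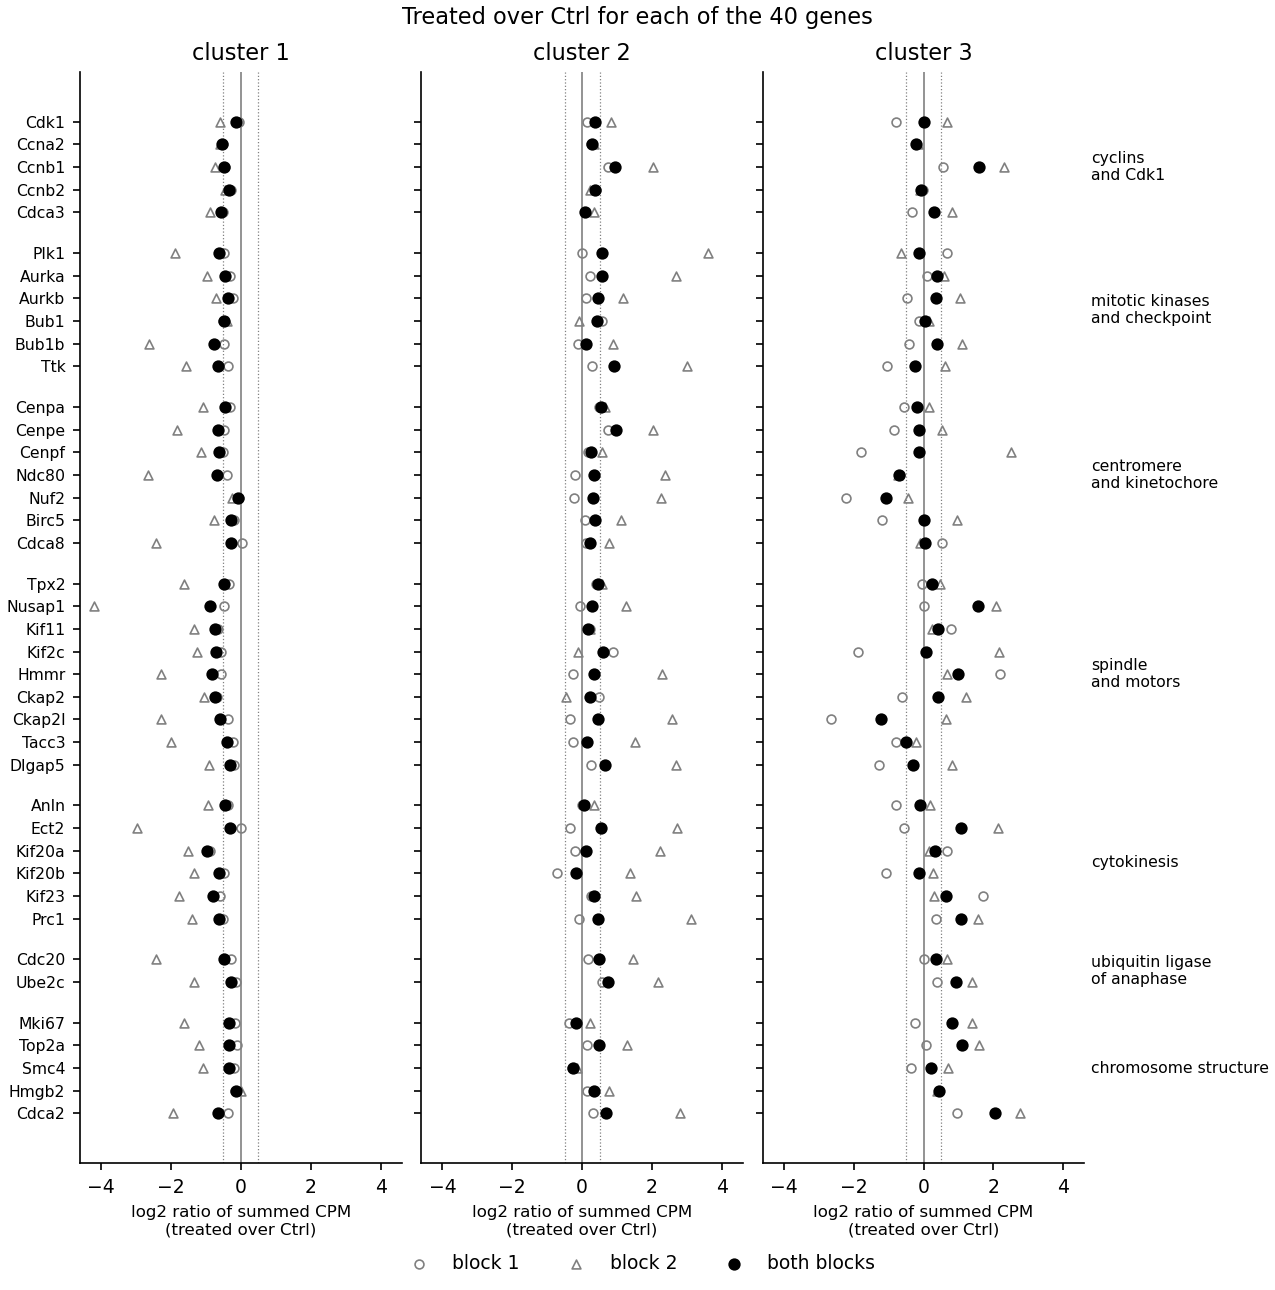
Log2 ratio of summed CPM, treated over Ctrl with 1 CPM added to both, for each of the 40 genes by functional group in clusters 1, 2 and 3; filled circles are both blocks, open circles block 1 and open triangles block 2, and dotted lines mark 0.5 and -0.5. All 40 filled circles lie below 0 in cluster 1, 37 lie above 0 in cluster 2, and cluster 3 is divided 26 to 14.

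Across clusters 1 and 2, 37 of the 40 genes were lower in cluster 1 and higher in cluster 2, as were 25% of measured genes. The opposite directions were known when the clusters were chosen for comparison, and the difference between the clusters was not tested. With clusters 1 to 3 pooled the directions cancelled in part. The mean score was 4.40 in Ctrl and 4.50 in treated cells, a difference of 0.10, while 34 of 40 summed levels were lower in treated cells, against 49.8% of measured genes, with a median ratio of -0.17. The mean score and the median ratio thus differed in sign. Of the pooled difference in score, the share of high cells contributed 0.19 and their level -0.12.

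In cluster 3, 26 of 40 genes were higher and 14 lower in treated cells, where 51.7% of measured genes were higher. A log2 ratio of 0.5 was reached by 10 genes (25% of 40, against 24.7% of measured genes) and one of -0.5 by 3, against 24%, so the count of higher genes stood at the background. In block 2 alone 24 reached 0.5, against 29.8%, and in block 1 alone 15 of 40 were above 0, against 51.1%. By means of log2(CPM + 1) 20 reached 0.5, and without run 6 the count was 6, with 13 genes above 0. Cdca2 (chr14:67676331-67715841, minus strand), which targets a phosphatase to chromosomes at the end of mitosis, was at 12.9 CPM in Ctrl and 55.9 in treated cells (2.04), and its ratio was 0.97 in block 1 and 2.77 in block 2. Ccnb1 was at 40.1 and 122.4 CPM (1.58), while its median cell went the other way, from 34.8 to 24.7 CPM. Nusap1 was at 49.5 and 148.6 CPM (1.57), with a highest treated cell of 1692 CPM and a ratio of 0.025 in block 1.

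The lowest ratios of cluster 3 belonged to the spindle protein Ckap2l, to Nuf2 and to Ndc80. Ckap2l was at 102.2 CPM in Ctrl and 43.01 in treated cells (-1.23), but 0.63 in block 2 and -0.01 without the highest cell of each treatment. Nuf2 was at 63.02 and 29.3 CPM (-1.08) and its partner Ndc80 at 88.3 and 54.1 CPM (-0.70), and both were lower in each block, with ratios of -2.22 and -0.46 for Nuf2 and of -0.67 and -0.74 for Ndc80. Of the remaining genes, Top2a was at 239.4 and 519 CPM (1.11), Mki67 at 172.4 and 304 (0.81, but -0.24 in block 1) and Hmgb2 at 70.3 and 95.3 (0.43). Aurka was at 83.4 and 108.6 CPM (0.38), Cdk1 at 505 and 511 (0.02) and Plk1 at 81.7 and 74.3 (-0.14), the last with 1 Ctrl cell at 2169 CPM.

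Within high cells alone few of the 40 genes passed the fold. In cluster 1, 38 of 40 were lower in treated high cells (49.8% of measured genes), with a median ratio of -0.28. A ratio of -0.5 was passed by 7 of 40, near the 15.4% of measured genes. Averaged per cell on the log2(CPM + 1) scale, spindle genes were at 6.95 ± 1.08 in 59 Ctrl and 6.23 ± 1.27 in 50 treated high cells, a difference of -0.72. Cytokinesis genes were at 6.24 and 5.57 (-0.67) and centromere genes at 7.41 and 6.88 (-0.52). Chromosome structure genes were at 7.81 and 7.59 (-0.22), the smallest difference of the 7 groups. In every group the difference was smaller than the SD over cells.

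In high cells of cluster 2 the groups differed in direction. The cyclins with Cdk1 were at 7.18 ± 1.16 in 28 Ctrl and 7.76 ± 0.92 in 38 treated cells, a difference of 0.59, and the 2 genes of the anaphase ligase at 7.55 and 8.02 (0.47). Cytokinesis genes were at 5.58 and 5.17 (-0.40) and chromosome structure genes at 7.22 and 7.13 (-0.09). Of the 40 genes, 31 were higher by summed level, against 51.7% of measured genes, but only 2 passed 0.5 and 2 passed -0.5, fewer than the 17.5% of measured genes each way. Ccnb1 (100.9 and 162.7 CPM, 0.68) and Cenpe (150.8 and 259 CPM, 0.78) were the higher pair, and Smc4 (454 and 288 CPM, -0.66) and Mki67 (445 and 298 CPM, -0.58) the lower pair, named here because they are the only ones past the fold. In high cells of cluster 3, 10 in Ctrl and 14 in treated cells, 25 of 40 were higher, against 54.7%. There 13 of 40 passed 0.5, against 5357 of 15204 measured genes, and 3 passed -0.5, against 3981 of 15204.

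A further list of 70 G2 and M phase genes, none of them among the 40, gave similar counts. In cluster 1, 65 of 70 were below 0 with a median ratio of -0.38, and 26 passed -0.5, where 51.9% and 13.2% of measured genes did. In block 1 alone 10 of 70 passed -0.5, against 12.8%, with a median of -0.18. In block 2 alone 56 of 70 did, against 30.8%, with a median of -1.27. Cyclin F (Ccnf), at 180 CPM in Ctrl and 95.6 in treated cells (-0.90), and Kif14, a cytokinesis kinesin at 20.8 and 10.7 CPM (-0.90), were the lowest. Cenpi, of the inner kinetochore, at 27.9 and 42.2 CPM (0.58), and Gtse1, at 50.8 and 58.1 CPM (0.19), were the highest. The ratio of Gtse1 was 0.40 in block 1 and -1.93 in block 2. In cluster 2, 56 of 70 were above 0 with a median of 0.31, and 24 passed 0.5, where 51.6% and 12.5% of measured genes did. In block 1 alone 38 of 70 were above 0, with a median of 0.07, and 11 passed 0.5, near the 12.5% of measured genes. In block 2 alone 62 were above 0, with a median of 1.04, and 49 passed 0.5, against 29.4%. The highest were Cep55, which recruits the abscission machinery to the midbody, at 27.9 and 64.8 CPM (1.19) and Sgo1, the protector of centromeric cohesion, at 25.9 and 56.3 CPM (1.09). The lowest were Depdc1b, at 11.2 and 3.63 CPM (-1.40), and Cenpn, of the inner kinetochore, at 43.2 and 34.6 CPM (-0.31).

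In cluster 3, 46 of 70 were above 0, against 51.7% of measured genes, with a median of 0.29. In block 1 alone 30 of 70 were, against 51.1%, with a median of -0.19. In block 2 alone 53 were, against 7717 of 15204 measured genes, with a median of 0.76. Incenp, the scaffold of the chromosomal passenger complex, was at 17.7 CPM in Ctrl and 80.6 in treated cells (2.13) and Cdc25c, a phosphatase that activates Cdk1, at 6.45 and 28.9 CPM (2.00). Spag5, a spindle protein, was at 75.96 and 21.9 CPM (-1.75) and Cenpi at 43.02 and 14.6 CPM (-1.49). The mean of log2(CPM + 1) over the 70 genes correlated with the score at r = 0.96 over the 395 cells, which share libraries and depth. Both lists measure the same cells, so the further list is not a separate sample.

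S phase genes were divided in cluster 1, where 14 of 30 were above 0 and 16 below, against 51.9% of measured genes below. Their median ratio was -0.01, and their mean log2(CPM + 1) was 3.89 in Ctrl and 4.03 in treated cells. The direction was not steady by block, with a median of 0.12 in block 1 and -0.91 in block 2. In cluster 2, 24 of 30 were above 0, against 51.6% of measured genes, with a median of 0.13, and the mean was 4.22 and 4.52. The blocks again disagreed. In block 1 of cluster 2, 10 of 30 were above 0, against 7409 of 15204 measured genes, with a median of -0.07. In block 2, 23 of 30 were, against 8351 of 15204, with a median of 0.44. Among high cells of cluster 2 the mean of the S phase genes was 5.30 in Ctrl and 4.89 in treated cells. In cluster 3, 23 of 30 were above 0, against 51.7%, with a median of 0.33.

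The genes outside the 40 whose level most resembled the score over the 395 cells were Pimreg (r = 0.83), Ccnb1-ps and Knl1 (0.79 each), Plk-ps1 (0.79), Cep55 and Gm12856 (0.78 each), Gm7856 (0.77) and Aspm (0.75). Of the 20 most alike, 13 were on the further G2 and M phase list and 0 on the S phase list. Pimreg was at 216.04 CPM in high and 14.7 in low cells, and at 163.7 CPM in Ctrl and 121.9 in treated cells of cluster 1. Its ratio was -0.42 in cluster 1, 0.37 in cluster 2 and -0.04 in cluster 3. In block 1 it was -0.33, -0.02 and -0.66, and in block 2 -0.95, 1.26 and 1.07. Knl1, the kinetochore scaffold that recruits Bub1, had ratios of -0.39, 0.64 and 0.26, and Aspm, a spindle pole protein, -0.75, 0.55 and 0.41. Knl1 had the other sign in block 1, at 0.07 in cluster 1 and -0.31 in cluster 2, against -2.81 and 2.43 in block 2. Aspm kept its sign in both blocks of clusters 1 and 2 but was at -0.11 in block 1 of cluster 3. Ccnb1-ps, Plk-ps1, Gm12856 and Gm7856 are annotated as processed pseudogenes, copies of spliced RNA in the genome. Ccnb1-ps stood at 13.7 CPM in high and 1.58 in low cells, and Plk-ps1 at 20.1 and 1.09. How reads were shared between such copies and their parents is not given in the sources used here, which leaves the levels of Ccnb1 and Plk1 uncertain by an unknown amount.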

How the data were processed

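The authors deposited raw counts, whole numbers of reads for each gene in each cell. The submitters' processing notes name GSNAP, HTSeq 0.6.0 and mm10, with settings not given in the sources used here. Smart-seq2 libraries carry no molecular identifiers. All 483 cells were used and doublets were not called. Depth ranged from 123097 to 2870618 reads per cell.

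Symbols and positions came from GENCODE M21 on the same build (45031 of 46078 identifiers had a symbol of their own). Levels are summed counts scaled to 1000000 gene-assigned reads (CPM), with exact Poisson and Clopper-Pearson intervals (95%). Ratios add 1 CPM to both treatments, which understates differences of low genes. With 1 sample per treatment no test was run. The steps were tested on simulated data. The members, lists, clusters and alternatives were chosen with earlier results of these data known. Per cluster, the 3 highest and 3 lowest of the 40 genes by ratio are named, and Ccnb1, Cdk1, Plk1, Aurka, Mki67, Top2a and Hmgb2 always; of the further list, the 2 highest and 2 lowest; and the 8 genes most like the score. Python 3.11.15, NumPy 2.4.6, pandas 2.3.3 and SciPy 1.17.1 were used.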

Additional observations from a re-analysis of the deposited data

Results flagged for a closer look

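In clusters 1 and 2 the score difference, treated minus Ctrl, had opposite signs, -0.38 and 0.71, and it had those signs in both blocks. The level within high cells also differed in sign in both blocks between cluster 1 (-0.51) and cluster 2 (0.16), and between cluster 1 and cluster 3 (0.53). The cluster 2 level did not hold its sign at equal depth, where it was 6.29 in Ctrl and 6.26 in treated high cells. Its block 2 value rests on 3 high Ctrl cells. The cluster 3 level rests on 10 Ctrl and 14 treated high cells over both blocks. None of these differences between clusters was tested.

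Clusters 4 to 7 were outside the comparisons, and in each the treated mean score was above that of Ctrl. The difference was 0.26 in cluster 4 (10 Ctrl and 12 treated cells), 1.43 in cluster 5 (6 and 7 cells), 0.58 in cluster 6 (14 and 19 cells) and 0.13 in cluster 7 (8 and 12 cells). Within blocks it was -2.44 and 1.87 in cluster 4, 0.72 and -0.09 in cluster 6, and 0.65 and -0.72 in cluster 7. In these clusters no direction held in both blocks. All 6 Ctrl cells of cluster 5 lay in block 1, where its difference was 1.45 (4 treated cells), so its blocks could not be compared.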

How the results depend on the processing

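Of the recomputed scores, shares, levels and counts, 88.1% stayed near the main value, which did not always require the same sign. A share counted as near anywhere inside the Newcombe interval of its main value, and each of these intervals includes 0. The cluster 2 level counted as near within the SD over runs, whatever its sign. Without 1 run the cluster 3 share ran from -14.0 to 20.6 points, and all of these values counted as near. No paired analysis was possible because the replicate numbers only count cells and pair none across treatments; differences within blocks and within runs, which hold both treatments, are given in their place. Block 2 alone moved the score difference to -1.37 in cluster 1 and 2.03 in cluster 2, the share to -19.2 and 34.8 points, and the level of high cells to -1.67 and 1.14. Its Xist-positive cells gave -1.58, -25.0 points and -1.70 in cluster 1, and 36.1 points in cluster 2. In cluster 3 the score difference turned to -0.33 in block 1, to -0.21 in its Y-positive cells and to -0.65 without run 6. Genes past the fold numbered 10 in block 1 and 36 in block 2 for cluster 1 (main 19). They numbered 5, 30 and, by means of log2 values, 28 for cluster 2 (main 11), and 24 in block 2 and 20 by means of log2 values for cluster 3 (main 10). Genes above 0 in cluster 3 numbered 15 in block 1 (main 26). Of the named genes past the fold, those that changed sign were Plk1 in cluster 2 (-0.013 in block 1), Ckap2l in cluster 3 (0.63 in block 2, 0.64 by means of log2 values) and Mki67 in cluster 3 (-0.24 in block 1). Named genes within the fold changed sign too: by means of log2 values Cdk1 (0.08) and Hmgb2 (0.16) in cluster 1, Smc4 (0.11), Kif20b (0.02) and Mki67 (0.40) in cluster 2 and Plk1 (0.28) in cluster 3. In block 2 these were Hmgb2 (0.01) in cluster 1 and Kif20b (1.38) and Mki67 (0.22) in cluster 2. In block 1 they were Cdk1 (-0.78) and Plk1 (0.66) in cluster 3, and Plk1 was also at 0.41 without the highest cell of each treatment. The cause was not tested.

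Leaving out 1 run at a time gave score differences from -0.70 to -0.21 in cluster 1, 0.53 to 1.00 in cluster 2 and -0.65 to 0.88 in cluster 3. Shares ran from -7.21 to 0.096, 11.1 to 20 and -14.0 to 20.6 points, and levels of high cells from -0.63 to -0.41, 0.092 to 0.25 and 0.42 to 0.67. Added after seeing the data, the same for counts of genes gave 15 to 24 past the fold and 39 to 40 below 0 in cluster 1. In cluster 2 it gave 6 to 23 past the fold (6 without run 1, 23 without run 2, 17 without run 3, 7 without run 6) and 31 to 38 above 0. In cluster 3 it gave 6 to 20 past the fold (20 without run 2, 16 without run 5, 6 without run 6) and 13 to 31 above 0 (13 without run 6). Thinning every cell to 120000 reads gave, in Ctrl and treated cells, 60.8% and 56.98% high cells in cluster 1, 35.6% and 54.2% in cluster 2 and 32.3% and 38.9% in cluster 3.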
